A study of Mus musculus with 24 samples.

Results

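The epithelium and the mesenchyme of the Müllerian duct were compared within wild-type female mouse embryos at E13.5 (counted in embryonic days), when the paired ducts have not yet fused at the midline. The 6 libraries were chosen by their labels, wild-type genotype and E13.5, out of 24 in the series. They came from 3 embryos, each giving 1 library of duct epithelium (MDE) and 1 of the mesenchyme beside the duct (MDM), and the number in the title joined the libraries of an embryo. The other 18 libraries came from 3 wild-type embryos at E14.5 and from 3 Wnt7a-null embryos at each stage, and served to see how the same probes behaved in different embryos. All embryos were female; the strain and the null allele are not given in the sources used here. One paraffin section per embryo lay on a shared slide, and the regions were outlined by immunofluorescence for laminin, a basement membrane protein. Each library was read on the GeoMx platform, in which ultraviolet light releases barcodes from probes hybridised to RNA inside an outlined region. A panel of 20175 probes was counted. The replicates are separate embryos, each with 1 section on a shared slide. The spread behind the adjusted p-values was estimated over all 24 libraries and moderated across probes, not from these 3 embryos alone.

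The Müllerian ducts are the embryonic precursors of the oviducts, uterus and upper vagina. The duct is an epithelial tube that elongates along the Wolffian duct within a sleeve of mesenchyme, with a basement membrane between them. The layers signal to each other: the epithelium secretes Wnt7a, a Wnt ligand, and the mesenchyme is known to direct how the epithelium differentiates along the tract. The probes carry numeric identifiers, and none of the 20175 matched the gene table used here (0 matched). The epithelial and mesenchymal markers, Wnt7a among them, were therefore not checked, and the regions are called by their labels. Probes are given by identifier, with at most 2 higher and 2 lower for each comparison.

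The regions differed widely in depth. The MDE libraries held 252679, 162376 and 144049 counts in embryos 1, 2 and 3, and the MDM libraries 1039606, 1539942 and 1052420. Every MDM library was thus deeper than every MDE library, by 4.11, 9.48 and 7.31 times within the embryos. Aligned reads differed more, with 48.2, 104 and 83.8 times as many in MDM. Reads per count were 2.19 ± 0.167 in MDE and 24.9 ± 1.07 in MDM (SD, n = 3 each), so that MDM barcodes had been read many times over and those of MDE only a few times. The exact two-sided sign-flip permutation test over the 3 embryos gave p = 0.25 for total counts, the smallest it can give, and p = 0.000488 over all 12 embryos. In these libraries fewer cells, less RNA per cell and fewer sequencing reads cannot be told apart as reasons for the lower MDE counts. The median probe had 10, 6 and 5 counts in the MDE libraries against 42, 61 and 37 in MDM, and 45.1%, 78.0% and 84.1% of probes had under 10 counts in MDE.

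**Figure D1:**
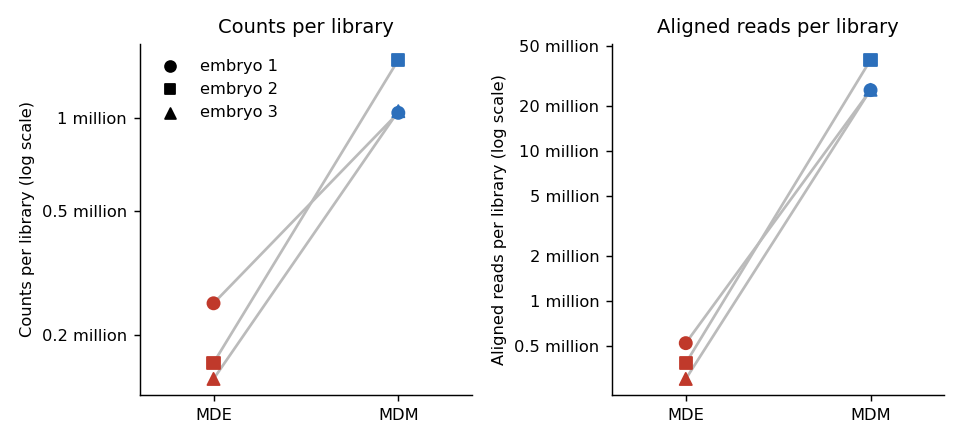
Total counts (left) and aligned reads (right) of the 6 wild-type E13.5 libraries on log scales, with a line joining the pair from 1 embryo. Each MDM library lies above each MDE library in both panels, and the gap in aligned reads, 48.2 to 104 times, is wider than that in counts, 4.11 to 9.48 times.

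Signal contrast is here the percentage of a library's counts that fell on 1009 bright probes (5% of the panel). These were the probes with the highest mean level over all 24 libraries, the same set for every library. Signal contrast was 20.4%, 20.9% and 27.4% in MDE and 18.9%, 20.1% and 26.3% in MDM. It was higher in MDE in 3 of 3 embryos, by 1.11 percentage points (SD 0.315, exact sign-flip p = 0.25). Over all 12 embryos it was higher in MDE in 11, by 1.51 percentage points (SD 0.742, exact sign-flip p = 0.000977). Embryo 3 stood above the other two in both regions. Levels below are CPM, counts scaled to a common library size by TMM, a correction for library composition. Background was set as the mean of the dimmest 25% of probes, at 25.9 CPM in MDE and 27.4 CPM in MDM. Of all probes, 8982 stayed under 1.5 times background in both regions, and 5754 reached at least 2 times background in one of them.

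Few probes were called different between epithelium and mesenchyme at this stage and depth. A probe that was not called was not shown to be alike in the regions. Of 20175 tested, 199 (0.986%) passed an adjusted p of 0.05 by edgeR's quasi-likelihood test with the embryo as a block, 141 higher in MDE (0.699%) and 58 lower (0.287%). An unadjusted p under 0.05 was reached by 1775. The median log2 fold change, MDE over MDM, was 0.97 among the higher probes, from 0.30 to 2.26, and −1.22 among the lower, from −0.29 to −2.08. Of the higher probes 66 differed over 2-fold and 4 over 4-fold, and of the lower 39 and 1. Most of the differences called were thus within 4-fold. The higher probes had a median of 162 CPM in MDE and 77.3 CPM in MDM, and the lower probes 56.3 CPM in MDE and 141 CPM in MDM.

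The balance of directions depended on the scaling. Under TMM 70.9% of calls were higher in MDE, and the median over all probes was −0.004 on the log2 scale. DESeq2, with its own size factors, called 171 higher and 45 lower, and limma-voom 150 and 43. Upper-quartile scaling moved the median over all probes to −0.17 and called 214 probes (1.06%), of which 77 were higher (0.382%) and 137 lower (0.679%), so that 36.0% were higher. Those 77 were all among the 141, and the 58 lower calls were all among the 137. On background-subtracted signal, tested by limma with weights on 8455 brighter probes, 102 passed (1.21%), 49 higher (0.58%) and 53 lower (0.627%), with a median over those 8455 of −0.12. The larger number of probes on the epithelial side was thus found at full depth under TMM and DESeq2 scaling and not under the other two.

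The embryos moved together at the called probes. Of the 141 higher probes 137 were above MDM in 3 of 3 embryos, and of the 58 lower probes 57 were below it in 3 of 3, against 13.8% and 15.7% of all probes. The ranges of the 3 MDE and 3 MDM libraries did not overlap for 97 of 141 and 42 of 58, against 6.41% of all probes with MDE above and 7.84% with MDE below. These counts describe probes chosen by the same test. Over the 5754 probes at least 2 times background, the log2 difference between the regions correlated between pairs of embryos with r = 0.295, 0.277 and 0.273, a description across probes that share libraries. How far counting noise lowered these values was not tested.

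Calls were concentrated among bright probes. When the panel was divided by mean level into 5 classes of 4035, the uppermost, from 53.2 CPM, held 127 of the 141 higher and 47 of the 58 lower calls, and 4.31% of its probes were called. The class below it held 8 and 7. The median SE of the log2 fold change was 0.427 in the lowest class and 0.260 in the uppermost, with a median of 4 and 14 counts in an MDE library. Small differences of dim probes were thus not detectable at this depth. Over all levels the fitted fold change exceeded 2-fold for 367 probes, of which 262 were not called. Such fitted values carry counting error and do not show that those 262 differ. For 32 of the higher and 19 of the lower probes the weaker region stayed under 1.5 times background, where the fold change includes background signal.

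**Figure D2:**
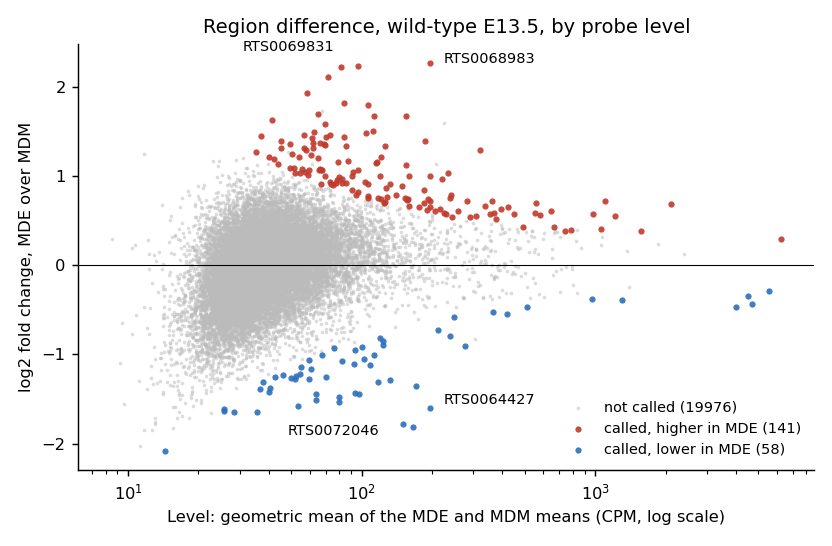
Log2 fold change of MDE over MDM (vertical axis) against the level of each of 20175 probes (geometric mean of the region means in CPM, log scale) in wild-type E13.5 embryos. The 141 probes called higher are red and the 58 called lower are blue. The cloud of probes not called widens towards low levels, and 262 of these had a fitted difference over 2-fold.

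At the bright end the differences were small but called. Of 17 probes with a level of at least 1000 CPM, 6 were higher in MDE, by 0.30 to 0.72 on the log2 scale, and 5 lower, by −0.29 to −0.46. Of the 6 higher ones 2 were called higher under upper-quartile scaling, while the 5 lower ones were all called lower. Of the 5 probes at 3000 CPM or more, 4 were lower in MDE and 1 higher, and the higher one was not called higher under upper-quartile scaling.

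The probe with the lowest p of all was RTS0068983, high in epithelium. It measured 314, 444 and 550.0 CPM in the MDE libraries of embryos 1, 2 and 3, from 81, 73 and 73 counts, and 87.4, 93.4 and 82.0 CPM in MDM. The regions did not overlap, and the MDM libraries lay within a narrow band while the MDE libraries spread. The log2 difference was 1.85, 2.25 and 2.75 in the embryos. The fitted log2 fold change was 2.26 (SE 0.155, adjusted p = 2.12e-34), from 436 ± 118 CPM in MDE and 87.6 ± 5.74 CPM in MDM (SD, n = 3 each).

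RTS0069831 was also high in epithelium, at 139.7, 225 and 271 CPM in MDE (36, 37 and 36 counts) and 40.5, 40.1 and 51.6 CPM in MDM. All MDE libraries stood above all MDM libraries, and the MDM mean was 1.61 times background. The log2 differences were 1.79, 2.49 and 2.39, and the fit gave 2.24 (SE 0.208, adjusted p = 1.57e-19), from 212 ± 66.7 against 44.1 ± 6.53 CPM. With background subtracted the log2 fold change was 3.30.

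On the mesenchymal side RTS0064427 measured 128, 91.3 and 105 CPM in MDE (33, 15 and 14 counts) and 283, 329.9 and 443 CPM in MDM. Each MDE library lay below each MDM library, and both regions were well above background, at 4.19 and 12.8 times. The log2 differences were −1.15, −1.85 and −2.07, and the fit gave −1.60 (SE 0.179, adjusted p = 3.66e-14), from 108 ± 18.5 against 352 ± 82.3 CPM.

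RTS0072046, the other probe chosen among those lower in MDE, measured 89.3, 79.1 and 67.8 CPM in MDE (23, 13 and 9 counts) and 246, 305 and 307 CPM in MDM. The regions did not overlap, with MDE at 3.05 times background. The log2 differences were −1.46, −1.95 and −2.18, and the fitted value was −1.79 (SE 0.203, adjusted p = 1.12e-13), from 78.7 ± 10.7 against 286 ± 34.9 CPM. These 4 probes were called in the same direction in each of 16 alternative settings, the fits without each embryo in turn included. Not all settings were a real change: with no low-count filter the same 20175 probes were fitted, and a minimum count of 20 kept 20168.

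**Figure D3:**
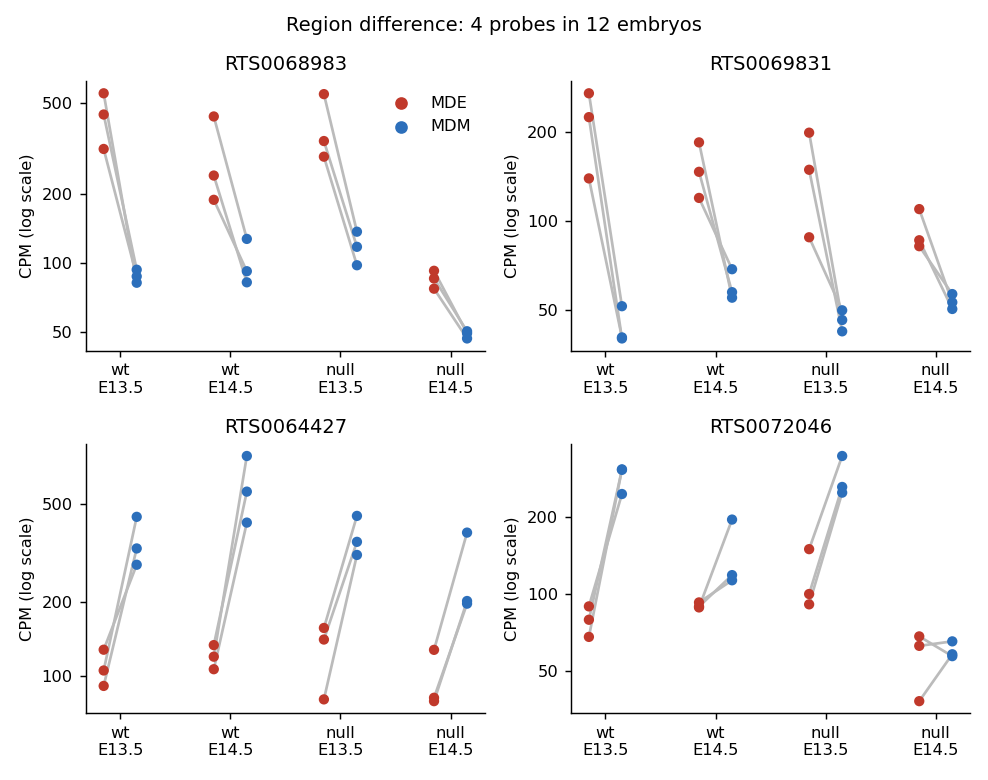
Levels (CPM, log scale) of 4 probes in the MDE (red) and MDM (blue) library of each of 12 embryos, 3 per genotype and stage, with a line joining the libraries of an embryo (wt, wild-type; null, Wnt7a-null). In wild-type E13.5 the regions do not overlap for any of them. For RTS0072046 they come together in null E14.5, at 56.2 and 60.05 CPM, which is 1.90 and 1.99 times background.

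The calls were next read at matched total counts; reads per count stayed unmatched. The deeper library of every embryo was thinned at random, in 5 draws, to the total of the embryo's other library. Between 83 and 119 of 18000 to 18065 probes then passed, 59 to 80 higher and 24 to 39 lower in MDE, and 116 (0.644%) in the first draw, 77 higher (0.427%) and 39 lower (0.217%). These lists held 38.2% to 51.3% of the 199 calls at full depth, and 85.3% to 94.4% of each thinned list was among the 199. In each draw the 199 kept their sign, 47 were called in all 5, and the 4 named probes were among those. Where only the 6 libraries were thinned and fitted, 152 of 3739 probes passed, 79 higher and 73 lower (52.0% higher), and 105 of them were among the 199. The directions in that fit were near even. Its 73 lower calls and the 58 at full depth came from unlike sets of tested probes, so these counts cannot be compared directly. Of the 58, 48 were tested in that fit and 40 were called lower again.

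The count of calls fell whenever 1 embryo was left out. Without embryo 1 it was 113 (81 higher, 32 lower), without embryo 2 it was 101 (75 and 26) and without embryo 3 it was 108 (84 and 24), and 95 to 101 of the 199 were called again. Fitted on the 6 libraries alone, 214 of 20134 probes passed, 196 of them among the 199. Without the embryo as a block 68 passed, and with signal contrast as a covariate 97.

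The same probes were then read in the embryos of the other groups, which share no library with the wild-type E13.5 embryos. The calls of all groups came from 1 fit in which each probe's spread was shared, so that the lists of calls are not independent. In wild-type E14.5 embryos 83 of the 141 higher probes were called higher in MDE, 58.9% of the list and 26.5% of the 313 called there, against 1.55% of all probes (2.35% in either direction). Of the 58 lower probes 28 were called lower, 48.3% of the list and 17.3% of the 162 called there, against 0.803%. In Wnt7a-null E13.5 embryos 80 of 141 were called higher (56.7%, and 47.6% of 168 called there) and 30 of 58 lower (51.7%, and 43.5% of 69), against 0.833% and 0.342% (1.17% in either direction). In Wnt7a-null E14.5 embryos 89 and 24 were called in their direction, against 1.8% and 0.555% (2.35% in either direction). One of those embryos, replicate 2, had an MDE library far deeper than other MDE libraries (2618342 counts); without it 38 of 141 and 6 of 58 were called, against 0.367% and 0.0694% (0.436% in either direction). None of the 199 was called in the opposite direction in any of these 3 comparisons. The 199 are brighter than most probes, and brighter probes are called more often.

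Their differences were smaller in the other embryos. The median log2 fold change of the 141 was 0.61 in wild-type E14.5, 0.63 in null E13.5 and 0.48 in null E14.5, against 0.97 in the embryos in which they were chosen. For the 58 it was −0.69, −0.61 and −0.31, against −1.22. The wild-type E13.5 values had chosen the probes and the others had not. The medians over all probes were −0.004, 0.002 and 0.005. In all 9 other embryos 87 of the 141 were above MDM and 28 of the 58 below it, against 1.78% and 1.20% of all probes.

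As a share of all counts, the 141 probes took 5.49% to 6.36% of MDE and 4.26% to 4.38% of MDM libraries in wild-type E14.5 embryos. In null E13.5 they took 3.16% to 4.73% against 2.299% to 3.51%, and in null E14.5 2.98% to 3.30% against 2.01% to 2.52%. The 58 probes took 2.71% of each wild-type E14.5 MDE library and 3.45% to 3.73% of MDM. Within each of the 9 embryos the first set had the larger share in MDE and the second in MDM. The ranges of MDE and MDM overlapped, though, in both null groups for the second set and in null E13.5 for the first. Bright probes as a whole also took a larger share in MDE, the brightest 5% in 11 of 12 embryos and the brightest 10% in 12 of 12. Of the 141, 127 were in the uppermost brightness class. How far this accounts for their larger share in MDE was not tested. Over the 5754 brighter probes the fitted region difference of wild-type E13.5 correlated with that of wild-type E14.5 at r = 0.471, of null E13.5 at 0.483 and of null E14.5 at 0.446, as descriptions across probes.

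**Figure D4:**
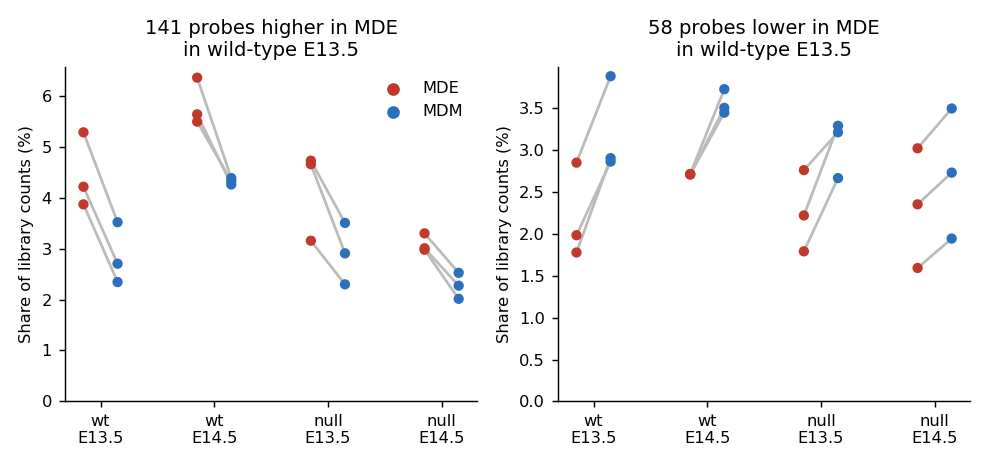
Share of library counts (percent) on the 141 probes higher (left) and 58 lower (right) in MDE of wild-type E13.5 embryos, in the MDE (red) and MDM (blue) library of 12 embryos. The wild-type E13.5 values chose the probes; in the 9 other embryos the 141 take the larger share in MDE (5.49% to 6.36% against 4.26% to 4.38% in wild-type E14.5) and the 58 the larger share in MDM.

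The named probes kept their direction in most other embryos. RTS0068983 measured 288 ± 130.3 against 101 ± 23.7 CPM (MDE against MDM) in wild-type E14.5, 392.3 ± 135 against 117 ± 19.6 in null E13.5, and 85.1 ± 7.62 against 48.8 ± 1.81 in null E14.5 (SD, n = 3 each). RTS0069831 stood at 151 ± 32.7 against 60.5 ± 7.31, 146 ± 55.7 against 46.2 ± 3.78 and 92.9 ± 14.9 against 53.5 ± 3.12 CPM in the same order. Both were higher in MDE in 9 of 9 embryos. RTS0064427 stood at 120.1 ± 13.48 against 588 ± 183, 126 ± 40.3 against 369 ± 70.2 and 96.3 ± 27.4 against 260.4 ± 106 CPM, lower in MDE in 9 of 9. RTS0072046 measured 90.02 ± 2.18 against 142 ± 46.0 CPM in wild-type E14.5, a difference that did not pass (−0.57, SE 0.198, adjusted p = 0.121), and 113 ± 31.6 against 285 ± 52.8 in null E13.5. In null E14.5 its regions lay together at 56.2 ± 16.0 and 60.05 ± 4.43 CPM, only 1.90 and 1.99 times background. Signal contrast was 13.9% to 19.5% in the null E14.5 libraries, against 18.9% to 27.4% in wild-type E13.5. Whether this lowered the difference was not tested. The stage interaction of these 4 probes in wild-type embryos did not pass (lowest adjusted p = 0.106, for RTS0068983, and 0.108 for RTS0072046).

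A test of the interaction asked whether the region difference itself changed between E13.5 and E14.5 in wild-type embryos. It passed for 9 of 20175 probes (0.0446%), with MDE minus MDM greater at E13.5 for 2 (0.00991%) and smaller for 7 (0.0347%). Of the 9, 8 were called between the regions at E14.5 and 1 at E13.5, so that most were probes whose regions were not told apart at E13.5. An unadjusted p under 0.05 was reached by 1162. DESeq2 and limma-voom called 3 each. Without wild-type E13.5 replicate 2 or 3 the count was 5 or 16, and without wild-type E14.5 replicate 1 or 2 it was 14 or 4.

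RTS0073768 had the lowest interaction p. At E13.5 it measured 171, 103 and 196 CPM in MDE and 178, 238 and 244 in MDM, slightly lower in MDE in 3 of 3 embryos with ranges that overlapped (−0.45, SE 0.179, adjusted p = 0.339). At E14.5 it measured 360.0, 395 and 361 CPM in MDE and 175, 117 and 113 in MDM, without overlap (1.52, SE 0.137, adjusted p = 4.14e-22). The interaction, E13.5 minus E14.5, was −1.97 (SE 0.217, adjusted p = 1.10e-13). RTS0063083 measured 50.5, 54.8 and 82.9 CPM in MDE and 49.7, 52.7 and 42.5 in MDM at E13.5, higher in MDE in 3 of 3 embryos with ranges that overlapped (0.30, SE 0.291, adjusted p = 0.858). At E14.5 its MDE libraries stood at 145, 278 and 267 CPM and its MDM libraries at 36.1, 41.1 and 38.9 CPM, under 1.5 times background. Its interaction was −2.33 (SE 0.298, adjusted p = 4.98e-10). Both interactions passed in all 15 alternative settings.

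The 2 probes with a greater MDE minus MDM at E13.5 were less secure. RTS0061959 measured 97.0, 73.0 and 75.3 CPM in MDE and 49.7, 63.3 and 98.2 in MDM at E13.5, higher in MDE in 2 of 3 embryos, and 34.3 ± 12.9 against 93.1 ± 6.48 CPM at E14.5. It had only 4, 8 and 11 counts in the E14.5 MDE libraries, a mean of 1.34 times background. Its interaction was 1.75 (SE 0.381, adjusted p = 0.0171). It was called in 8 of 15 alternative settings, among them no low-count filter and a minimum count of 20, which barely changed the fit. It was not called without wild-type E13.5 replicate 1 (1.32, adjusted p = 0.683) or 2 (1.81, adjusted p = 0.0631), nor when E14.5 embryo 1 or 2 was left out (1.59 and 1.60, adjusted p = 0.101 and 0.287). DESeq2 (1.75, adjusted p = 0.201), limma-voom (1.77, adjusted p = 0.148) and the fit without the embryo block (1.70, adjusted p = 0.418) did not call it either. RTS0064439 measured 62.1, 97.4 and 188 CPM in MDE and 99.3, 99.7 and 198 in MDM at E13.5, and 52.5 ± 1.68 against 180 ± 26.1 CPM at E14.5. Embryo 3 was high in both regions at E13.5. RTS0064439 had 8, 15 and 12 counts in the E14.5 MDE libraries, a mean of 2.05 times background. Its interaction was 1.48 (SE 0.337, adjusted p = 0.0318). It was called in 4 of 15 alternative settings, again with no low-count filter and a minimum count of 20 among them. The call ended without wild-type E13.5 replicate 2 or 3 (adjusted p = 0.173 and 0.279) and without any 1 of the E14.5 embryos (adjusted p = 0.130, 0.190 and 0.123), with values between 1.36 and 1.60. It also ended with DESeq2 (adjusted p = 0.450), limma-voom (0.297), no embryo block (0.674), thinned counts (0.391), the contrast covariate (0.0883) and background-subtracted limma (0.393). In these 6 settings the value lay between 1.31 and 2.06.

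**Figure D5:**
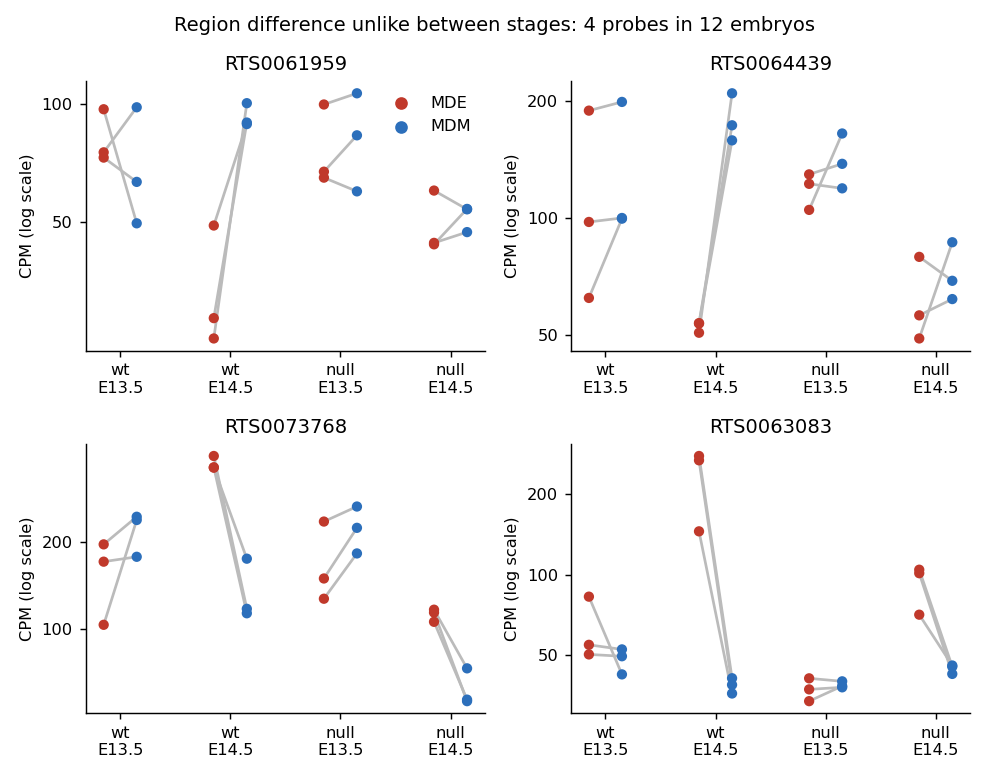
Levels (CPM, log scale) of the 4 probes named for the stage interaction, in the MDE (red) and MDM (blue) library of 12 embryos, with a line joining the libraries of an embryo (wt, wild-type; null, Wnt7a-null). In wild-type E13.5 the ranges of MDE and MDM overlap for all 4, and in wild-type E14.5 they separate without overlap, as for RTS0063083 at 145 to 278 against 36.1 to 41.1 CPM.

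A corresponding test between genotypes asked whether the region difference at E13.5 differed in Wnt7a-null embryos. By edgeR 0 of 20175 probes passed (0.0%), with 855 at an unadjusted p under 0.05 and a lowest adjusted p of 0.9976. DESeq2 called 0 with 483 unadjusted, and limma-voom 0 with 995. Without null E13.5 replicate 1, edgeR called 1. A difference between genotypes in how the regions differ was thus not detectable with 3 embryos a group at this depth, which does not show that the regions differ alike.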

How the data were processed

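Per the file headers, reads were processed with the GeoMx NGS Pipeline 2.3.5, and the deposited values are raw counts per probe, fewer than the aligned reads; how reads were collapsed is not given in the sources used here. All 24 files name 1 sequencing run. The submitters' processing notes name GRCm38.p6. Probes not listed in a file were set to 0. Groups and embryos came from the titles; the design text gives 12 embryos and 24 regions. Probe names were not paired with genes, so the planned marker and pathway lists were not run.

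Counts of all 24 libraries were fitted with edgeR 4.0.16 in R 4.3.3 (TMM, filterByExpr with a minimum count of 10 and a minimum total of 15, robust quasi-likelihood, Benjamini-Hochberg over 20175 probes), with the embryo as a block and 1 region difference per genotype and stage. SE is the size of the log2 fold change over the square root of F. Same-numbered MDE and MDM libraries deviated together in wild-type E13.5 (r = 0.161, 0.0905 and 0.236). Libraries of unlike number gave r from −0.199 to 0.0689, the highest close to the match of embryo 2. Same-numbered libraries come from 1 embryo per the labels. Replicate libraries differed by more than sampling noise (chi-square per degree of freedom of 1.10 to 2.48), and 0 pairs of files were identical. The named probes were, per direction, the 2 with the lowest p among those called, of 1 sign in 3 of 3 embryos and at least 2 times background in the stronger region; for interactions, 2 times background in the highest of the 4 groups and no rule on sign. Alternatives used DESeq2 1.42.0, limma 3.58.1 and thinned counts; the weights of the background-subtracted fit (extra variance 0.02) were set after simulated data showed false calls without them. Tests on embryos used scipy 1.17.1 in Python 3.11.15. The steps were tested on simulated data. The comparison, the alternatives and the naming rule were chosen with earlier results of these data known.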

Additional observations from a re-analysis of the deposited data

Results flagged for a closer look

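The region difference changed between stages in wild-type embryos for 9 of 20175 probes, by the interaction test in edgeR. Among them RTS0073768 (−1.97 on the log2 scale, E13.5 minus E14.5) and RTS0063083 (−2.33) had a smaller MDE minus MDM at E13.5, and RTS0061959 (1.75) and RTS0064439 (1.48) a greater one. Groups held 3 libraries each, too few for a test of single libraries that stand apart.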

How the results depend on the processing

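The 4 probes named for the region difference kept direction and call in all 16 settings, and the mean difference in signal contrast kept its sign with the brightest 10% of probes (1.61 percentage points, 3 of 3 embryos) and the brightest 1% (0.268, SD 0.289, 2 of 3 embryos, exact p = 0.5). The count of 199 became 68 with no replicate block (55 higher, 13 lower) and 116 with thinned counts (77 higher, 39 lower). Where only the 6 libraries were thinned and fitted, 79 were higher and 73 lower, of 3739 probes tested. The count was 97 where signal contrast entered as a covariate (65 and 32), and 102 on background-subtracted signal (49 higher, of 8455 probes tested). Upper-quartile scaling gave 77 higher and 137 lower. Leaving out each wild-type E13.5 embryo gave 101 to 113 calls, 75 to 84 higher and 24 to 32 lower. The stage interaction count of 9 became 3 with DESeq2 and with limma-voom, 4 with no replicate block, 5 with thinned counts, 4 on background-subtracted signal, and 4 to 16 without 1 embryo. The genotype interaction count of 0 became 1 with thinned counts and ranged from 0 to 1 without 1 embryo. The cause of these shifts was not tested. Some of the settings, but not all, held fewer embryos, counts or probes. Counting error limits the dim probes of MDE most, with a median of 5 to 10 counts per probe.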
